A study of Mus musculus with 45 samples.

Results

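A set of 10 genes of the TGF-beta family and its nuclear read-out were followed here across mouse kidney tubules that had lost *Pkd1*, with or without cilia. They were the ligands *Tgfb1*, *Tgfb2*, *Tgfb3* and *Bmp7*, the receptors *Tgfbr1* and *Tgfbr2*, the feedback inhibitor *Smad7* and the inhibitors of differentiation *Id1*, *Id2* and *Id3*. They were chosen by name, as 10 of the 55401 annotated genes in the count tables, and all 10 passed the filter on low counts in both sexes. The libraries came from translating ribosome affinity purification (TRAP), in which mRNA is recovered with ribosomes that carry the EGFP-Rpl10a protein, followed by RNASeq of 1 library per mouse. The 45 mice fell into 6 groups of genotype and sex, killed at 7 weeks of age (postnatal day 49). Noncystic mice (8 males, 7 females), labelled WT, were Pkd1 fl/+. Pkd1KO mice (7 males, 8 females) were Pkd1 fl/fl. Pkd1KO+ciliaKO mice (9 males, 6 females) were Pkd1 fl/fl and also Kif3a fl/fl, and *Kif3a* encodes a motor subunit that cilia need. Every mouse, controls included, also carried single copies of RosaEGFP-Rpl10a, Pax8rtTA and TetOCre and received doxycycline from postnatal day 28 to 42. The noncystic mice had therefore also recombined their single floxed *Pkd1* allele. The tag and the knockouts were limited to cells with Pax8rtTA activity, mainly kidney tubule cells, and the design asked which transcripts change with loss of *Pkd1* before cysts form and whether the change needs cilia.

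Ligands of this family are secreted dimers that bind a type II receptor, which then activates a type I receptor. For the TGF-beta ligands these are the products of *Tgfbr2* and *Tgfbr1*, and the signal passes to Smad2 and Smad3. BMP ligands such as Bmp7, which is needed for nephron formation and stays expressed in adult tubules, use other receptors and Smad1, Smad5 and Smad9. Smad4 is shared by both branches. Smad7 is induced by the signal and blocks the type I receptors. Id proteins lack a DNA-binding region, hold E proteins such as Tcf3 away from DNA, and are standard targets of BMP signalling.

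Between 80874556 and 132958186 fragments were counted per mouse, so that 3 counts stood for at most 0.0371 CPM (counts of a gene scaled to the size of the library), and the lowest count of any of the 10 genes in any mouse was 72. CPM values were scaled with TMM factors over all 45 mice. *Kif3a* was measured first as a check of the labels. It ranged from 4.90 to 7.45 CPM in Pkd1KO+ciliaKO males and from 13.8 to 25.5 CPM in noncystic males. In females 2 libraries went against their labels, with *Kif3a* at 6.69 CPM in the library labelled noncystic female 5 and at 20.7 CPM in the library labelled Pkd1KO+ciliaKO female 6. *Pkd1* counts cover the whole gene, of which only a part is deleted, and share exon bases with *Tsc2* on the opposite strand. Their log2 difference of -0.45 (SE 0.155) between Pkd1KO and noncystic males did not pass the test in edgeR (adjusted p = 0.0991). Proximal tubule markers summed to between 4634 and 11191 CPM, against at most 521 CPM for 8 endothelial and 428 CPM for 8 macrophage markers. None of the markers of those lists was at 0 in every mouse. Both of these highest values, and the lowest proximal tubule sum, belonged to Pkd1KO male 4, in which fibroblast and pericyte markers reached 908 CPM. The highest fibroblast and pericyte sum of all mice, 949 CPM, was that of Pkd1KO female 4. On the first principal component, 4 males (noncystic 3, Pkd1KO 4 and Pkd1KO+ciliaKO 6 and 8) lay at -30.2 to -1.13, below the other 20 males at 14.4 to 40.3, while the 21 females lay at -38.4 to -12.9.

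In GRCm38 coordinates *Tgfb1* lies on chromosome 7 at 25687002 to 25705077 on the plus strand, *Tgfb2* on chromosome 1 at 186622792 to 186705989 on the minus strand, and *Tgfb3* on chromosome 12 at 86056745 to 86079041 on the minus strand. *Bmp7* lies on chromosome 2 at 172868012 to 172940321 (minus), *Tgfbr1* on chromosome 4 at 47353222 to 47414931 (plus), *Tgfbr2* on chromosome 9 at 116084293 to 116175360 (minus) and *Smad7* on chromosome 18 at 75367529 to 75395935 (plus). The Id genes are short, with *Id1* on chromosome 2 at 152736251 to 152737410 (plus), *Id2* on chromosome 12 at 25093799 to 25097140 (minus) and *Id3* on chromosome 4 at 136143497 to 136145755 (plus). Counts were made over all annotated exons of each gene, untranslated parts included.

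Levels of different genes were compared per length, as TPM (transcript abundance scaled to gene length and library size), which the authors computed for each sex separately. *Id2* was the most abundant of the 10, with group means of 200.2 to 270.2 TPM. *Id1* spanned 29.8 to 93.1 TPM and *Id3* 50.8 to 84.8 TPM. *Smad7* (38.0 to 55.8 TPM), *Bmp7* (38.1 to 50.5 TPM), *Tgfbr2* (27.2 to 38.0 TPM) and *Tgfbr1* (27.2 to 33.4 TPM) lay in the middle. The 3 TGF-beta ligands were the lowest, with *Tgfb1* at 6.61 to 10.6 TPM, *Tgfb2* at 0.673 to 5.59 TPM and *Tgfb3* at 1.20 to 2.85 TPM. *Tgfb2* and *Tgfb3* share exon bases with the annotated genes Gm29491, and Gm37804 and Gm48008, each on the opposite strand. Whether strand was used in counting is not given in the sources used here, so both levels are uncertain to that extent.

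**Figure D1:**
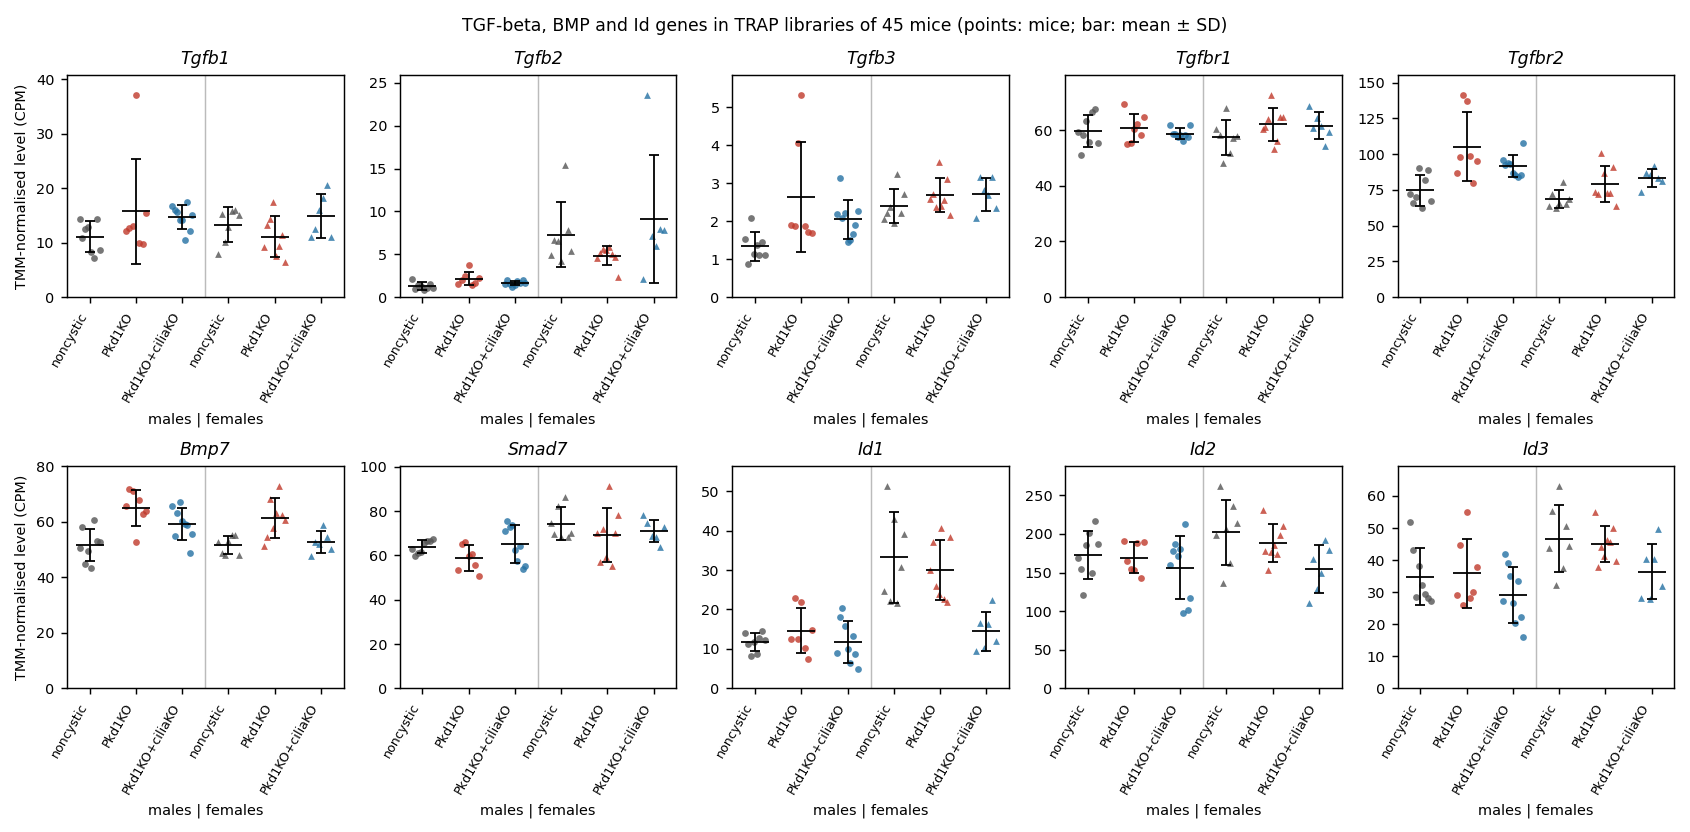
Levels of the 10 genes in each of the 45 mice, in TMM-normalised CPM on axes that start at 0, with circles for males, triangles for females and black bars for the group mean ± SD. Females of each genotype have the higher mean for *Tgfb2* and *Id1*, with *Id1* in Pkd1KO+ciliaKO females (mean 14.5 CPM) close to the male groups, and the single high *Tgfb1* point is Pkd1KO male 4 at 37.2 CPM.

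The genotype comparisons called few of the 10 genes. With edgeR's quasi-likelihood test and a threshold of 0.05 on the Benjamini-Hochberg adjusted p over all genes tested, 3 of the 10 were called in Pkd1KO against noncystic males, where 6.30% of all genes tested were called. In Pkd1KO+ciliaKO against noncystic males 2 were called, beside 8.89% of all genes. In Pkd1KO against Pkd1KO+ciliaKO males 0 were called, beside 3.77% of all genes. That comparison had 1 gene (*Tgfb2*) at an unadjusted p under 0.05, beside 19.7% of all genes, 0 by DESeq2 and 1 (*Smad7*) by limma voom. In females, 0 were called in Pkd1KO against noncystic mice, beside 3.34% of all genes, with 3 at an unadjusted p under 0.05, beside 16.4% of all genes, and 1 (*Bmp7*) by DESeq2. In Pkd1KO against Pkd1KO+ciliaKO females 1 was called, beside 11.7% of all genes, and in Pkd1KO+ciliaKO against noncystic females 2, beside 2.54%. That last share was 0.0501% without Pkd1KO+ciliaKO female 2 or without female 3, 4.67% without the library labelled noncystic female 5 and 5.80% without both libraries whose *Kif3a* went against the label. Counts as small as these are read gene by gene below. The median log2 fold change of the 10 genes was 0.33 in Pkd1KO against noncystic males, where that of all genes was -0.01, and -0.07 in the same comparison of females, where that of all genes was 0.00. Comparisons within a sex share mice and are not independent of each other. In none of these 6 comparisons did any of the 10 genes have groups without overlap. Among all genes the groups did not overlap for 2.11%, 1.11% and 1.06% in males (Pkd1KO against noncystic, Pkd1KO against Pkd1KO+ciliaKO and Pkd1KO+ciliaKO against noncystic) and for 1.06%, 2.99% and 1.73% in females.

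**Figure D2:**
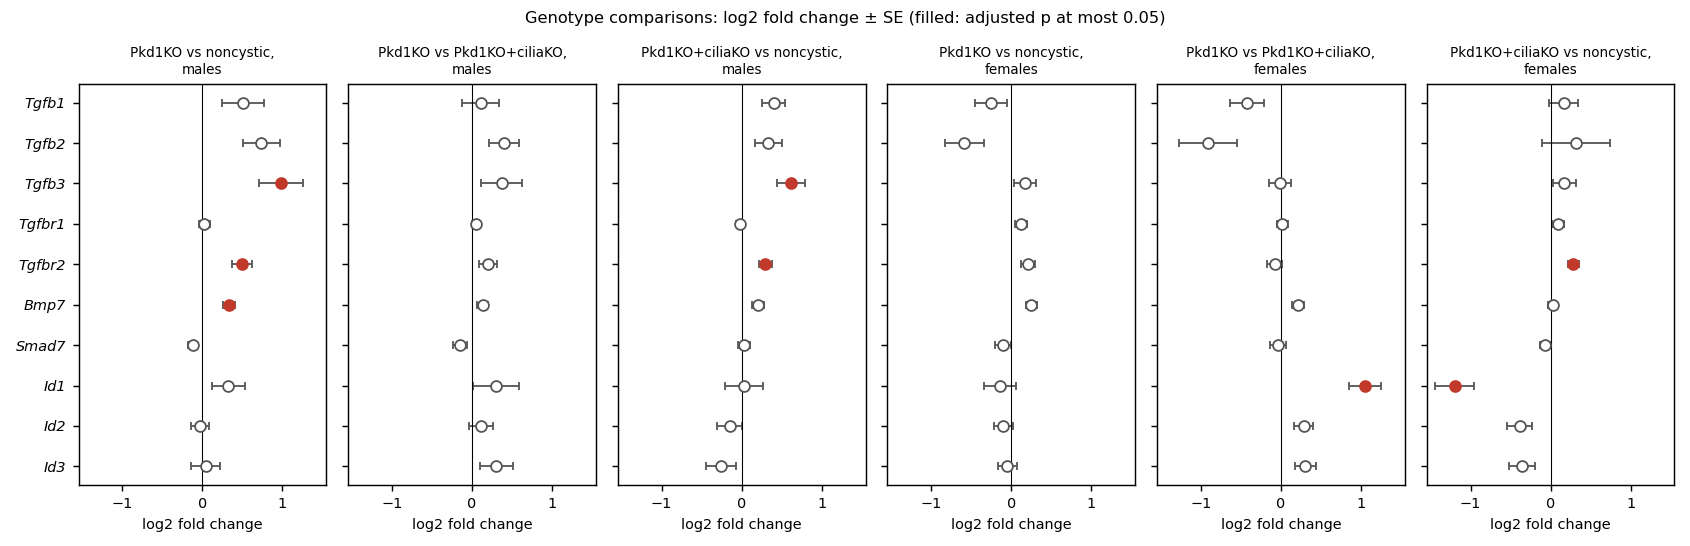
Log2 fold changes ± SE of the 10 genes in the 6 genotype comparisons, with filled points for an adjusted p of at most 0.05 in edgeR. Filled points are *Tgfb3*, *Tgfbr2* and *Bmp7* in Pkd1KO males against noncystic males, *Tgfb3* and *Tgfbr2* in Pkd1KO+ciliaKO against noncystic males, *Id1* in both female comparisons with Pkd1KO+ciliaKO, and *Tgfbr2* in Pkd1KO+ciliaKO against noncystic females.

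Among the ligands, *Tgfb3* and *Bmp7* were higher in Pkd1KO than in noncystic males. *Tgfb3* was at 0.865 to 2.10 CPM in noncystic males (median 1.26), at 1.69 to 5.33 CPM in Pkd1KO males (median 1.88) and at 1.46 to 3.13 CPM in Pkd1KO+ciliaKO males (median 2.08). Pkd1KO males 3 and 4 were above every noncystic male, and the other 5 lay within the noncystic range, above its median. The top of that range was noncystic male 3, which lay low on the first principal component, and the next noncystic male was at 1.53 CPM. The log2 fold change was 0.98 (SE 0.276, adjusted p = 0.0433) in Pkd1KO against noncystic males and 0.62 (SE 0.177, adjusted p = 0.0352) in Pkd1KO+ciliaKO against noncystic males, both with edgeR. SE throughout is the absolute log2 fold change divided by the square root of the test's F value. *Tgfb3* was thus called against noncystic mice with and without cilia, and between Pkd1KO and Pkd1KO+ciliaKO males the difference of 0.37 (SE 0.256) did not pass (adjusted p = 0.448 in edgeR). Both *Tgfb3* calls were close to the threshold. The first was lost without any of noncystic males 1, 2, 4, 5, 6, 7 and 8 or Pkd1KO males 3 and 4 (adjusted p up to 0.0976, log2 fold change 0.71 without Pkd1KO male 4). The second was lost without any of noncystic males 2, 4, 5, 6, 7 and 8 or Pkd1KO+ciliaKO males 1, 2, 3, 4 and 9 (adjusted p up to 0.0780). The first was also lost with limma on log2(TPM + 1) and log2(TPM + 0.1), and the second with all 3 genotypes in one fit.

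*Bmp7* was the steadier of the called ligands. It was at 43.5 to 60.4 CPM in noncystic males (median 51.75), 52.7 to 71.7 CPM in Pkd1KO males (median 65.6) and 48.9 to 66.9 CPM in Pkd1KO+ciliaKO males (median 59.3). All Pkd1KO males but male 4 were above every noncystic male. The log2 fold change in Pkd1KO against noncystic males was 0.33 (SE 0.0793, adjusted p = 0.0196 in edgeR), and the call was kept under all 11 alternative settings and with each of the 15 mice left out. Pkd1KO+ciliaKO males lay between the other genotypes, and neither difference from them passed (0.20, SE 0.0758, adjusted p = 0.109 against noncystic males, and 0.13, SE 0.0714, adjusted p = 0.314 for Pkd1KO against Pkd1KO+ciliaKO). In females *Bmp7* was at 48.0 to 55.2 CPM in noncystic mice (median 52.7), 51.2 to 72.8 CPM in Pkd1KO mice (median 61.6) and 47.5 to 58.8 CPM in Pkd1KO+ciliaKO mice (median 52.3). Of the 8 Pkd1KO females, 6 were above every noncystic female, and the Pkd1KO+ciliaKO females covered the noncystic range. The difference in Pkd1KO against noncystic females, 0.25 (SE 0.0684), missed the threshold narrowly (adjusted p = 0.0525 in edgeR) and passed it under 6 of 11 alternative settings, among them the fit without the libraries whose *Kif3a* went against the label (adjusted p = 0.0499). Against Pkd1KO+ciliaKO females it was 0.22 (SE 0.0751, adjusted p = 0.0699 in edgeR).

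*Tgfb1* and *Tgfb2* passed in no genotype comparison. *Tgfb1*, the main TGF-beta ligand of injured kidney, was at 7.14 to 14.3 CPM in noncystic males (median 11.7), at 9.81 to 37.2 CPM in Pkd1KO males (median 12.7) and at 10.5 to 17.6 CPM in Pkd1KO+ciliaKO males (median 15.0). The highest of the other 6 Pkd1KO males was at 15.5 CPM. The log2 difference of 0.50 (SE 0.265) between Pkd1KO and noncystic males (adjusted p = 0.281 in edgeR) was 0.13 without Pkd1KO male 4, the mouse with the raised macrophage, endothelial and fibroblast markers. In the other 6 Pkd1KO males the macrophage markers summed to between 103 and 142 CPM, against 77.0 to 112 CPM in noncystic males. The part of these cells in the *Tgfb1* level was not tested, and in bulk libraries fewer cells of a type and less RNA per cell cannot be told apart. Pkd1KO+ciliaKO males differed from noncystic males by 0.40 (SE 0.141, adjusted p = 0.0841 in edgeR). Without the 4 males that lay low on the first principal component this was 0.51 (SE 0.140) and passed (adjusted p = 0.0238). In females *Tgfb1* medians were 15.1, 10.4 and 14.3 CPM in noncystic, Pkd1KO and Pkd1KO+ciliaKO mice, and no difference passed. The highest Pkd1KO female, at 17.5 CPM, was female 4, the mouse with the highest fibroblast and pericyte sum. The part of those cells in its *Tgfb1* level was not tested.

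*Tgfb2* varied widely among females of the same genotype. It was at 0.833 to 2.14 CPM in noncystic males, 1.44 to 3.76 CPM in Pkd1KO males and 1.16 to 2.02 CPM in Pkd1KO+ciliaKO males (medians 1.19, 1.97 and 1.62). Pkd1KO against noncystic males gave a log2 fold change of 0.73 (SE 0.232, adjusted p = 0.0726 in edgeR), which passed with DESeq2 and in the fit of 3 genotypes together. In females it was at 4.21 to 15.4 CPM in noncystic mice, 2.34 to 5.83 CPM in Pkd1KO mice and 2.07 to 23.6 CPM in Pkd1KO+ciliaKO mice (medians 6.56, 5.10 and 7.49). The highest noncystic value was that of the library labelled noncystic female 5, whose *Kif3a* went against its label. The differences of -0.59 (SE 0.243, adjusted p = 0.223 in edgeR) against noncystic females and of -0.91 (SE 0.364, adjusted p = 0.114) against Pkd1KO+ciliaKO females did not pass, and without the libraries whose *Kif3a* went against the label the first was -0.29.

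Of the receptors, *Tgfbr2* was higher than in noncystic mice in 3 of the 4 comparisons with them, while *Tgfbr1* passed in none. *Tgfbr2* was at 62.0 to 90.2 CPM in noncystic males (median 70.9), 79.8 to 141 CPM in Pkd1KO males (median 98.1) and 84.2 to 108 CPM in Pkd1KO+ciliaKO males (median 92.3). Of the 7 Pkd1KO males 5 were above every noncystic male, as were 5 of the 9 Pkd1KO+ciliaKO males. The log2 fold change was 0.50 (SE 0.127, adjusted p = 0.0277) and 0.30 (SE 0.0795, adjusted p = 0.0252) in edgeR. Between Pkd1KO and Pkd1KO+ciliaKO males the difference was 0.20 (SE 0.109, adjusted p = 0.321). The first call was lost without any of noncystic males 1, 2 and 5 or Pkd1KO males 3 and 4 (adjusted p up to 0.0615) and without the 4 males that lay low on the first principal component (0.41, adjusted p = 0.0753), and the second without noncystic male 2 or 5 (adjusted p up to 0.0675). The first was also lost with limma voom and both limma fits on TPM, and the second with 3 genotypes in one fit. In Pkd1KO against noncystic males 2 of 5 podocyte markers were called higher (median log2 fold change 0.77). So were 2 of 6 tubule injury markers (median 0.94) and 2 of 8 macrophage markers (median 1.77). Summed per mouse, tubule injury markers had medians of 138 and 145 CPM in Pkd1KO and noncystic males. Macrophage markers had medians of 122 and 95.8 CPM, with Pkd1KO male 4 at 428 CPM. Of thick ascending limb markers 2 of 4 were called lower (median log2 fold change -0.63), and of proximal tubule markers 1 of 7 (median -0.28). The part of any of these in the *Tgfbr2* level was not tested.

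In females *Tgfbr2* was at 62.5 to 80.8 CPM in noncystic mice (median 66.1), 63.6 to 101 CPM in Pkd1KO mice (median 73.1) and 73.2 to 91.7 CPM in Pkd1KO+ciliaKO mice (median 84.4). Of the 6 Pkd1KO+ciliaKO females 5 were above every noncystic female, the highest of which was the library labelled noncystic female 5. The log2 fold change was 0.28 (SE 0.0675, adjusted p = 0.0411 in edgeR), and 0.34 (adjusted p = 0.0122) without the libraries whose *Kif3a* went against the label. The call was lost without any of noncystic females 1, 2, 3, 4, 6 and 7 or Pkd1KO+ciliaKO females 2, 3, 4 and 5 (adjusted p up to 0.0982, log2 fold change 0.26 to 0.33), and with 3 genotypes in one fit and with all annotated genes. Pkd1KO against noncystic females gave 0.21 (SE 0.0896, adjusted p = 0.237). *Tgfbr1* group means lay between 57.4 and 62.1 CPM in all 6 groups, each gap between neighbouring means was smaller than the larger SD, and no genotype difference exceeded 0.12 on the log2 scale.

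The sequence just before the *Tgfbr2* start is shown because this receptor was called in 3 comparisons. RefSeq promoter windows (250 bases before to 50 after the start) were matched for 6 of the 10 genes. The 150 bases printed here lie at chr9:116175364-116175513 of GRCm38.p6, on the minus strand, with CCAAT boxes (the letters CCAAT, or ATTGG on the other strand) in capitals.
Tgfbr2: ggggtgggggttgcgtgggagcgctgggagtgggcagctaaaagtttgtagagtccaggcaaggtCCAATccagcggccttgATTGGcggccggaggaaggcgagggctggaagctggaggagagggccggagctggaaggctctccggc
The window held CCAAT at positions -85 and, on the other strand, -68, counted back from the base before the start. CCAAT in either orientation was in 37.4% of the 32851 mouse windows, so the match is common.

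*Smad7*, the inhibitor, passed in no genotype comparison in edgeR. Limma voom called it in Pkd1KO against Pkd1KO+ciliaKO males, where edgeR gave a log2 difference of -0.15 (SE 0.0858, adjusted p = 0.357). Its group means were 64.0, 58.8 and 65.2 CPM in noncystic, Pkd1KO and Pkd1KO+ciliaKO males, and 74.3, 69.2 and 71.1 CPM in the same genotypes of females. The Pkd1KO mean was the lowest in both sexes, but each gap between neighbouring means was smaller than the larger SD. The log2 difference from noncystic mice was -0.12 (SE 0.0616, adjusted p = 0.250 in edgeR) in males and -0.10 (SE 0.0972, adjusted p = 0.695) in females.

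The Id genes gave the largest genotype difference among the 10, in females lacking cilia. *Id1* was at 21.6 to 51.3 CPM in noncystic females (median 30.7), 21.8 to 40.6 CPM in Pkd1KO females (median 28.0) and 9.47 to 22.3 CPM in Pkd1KO+ciliaKO females (median 14.2). Only Pkd1KO+ciliaKO female 5 reached into the range of either other genotype. *Id1* was higher in Pkd1KO than in Pkd1KO+ciliaKO females by 1.05 on the log2 scale (SE 0.204, adjusted p = 0.00477 in edgeR), and this held under all 11 alternative settings and with each of the 14 mice left out. It was lower in Pkd1KO+ciliaKO than in noncystic females (log2 fold change -1.20, SE 0.241, adjusted p = 0.0259), also under all 11 settings. The second call was lost without any of noncystic females 2, 6 and 7 or Pkd1KO+ciliaKO females 2, 3 and 4 (adjusted p up to 0.0735, log2 fold change -1.37 to -1.06 over all 13). Without the libraries whose *Kif3a* went against the label the differences were 1.00 and -1.23. Pkd1KO and noncystic females differed by -0.14 (SE 0.195, adjusted p = 0.807).

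*Id1* is strongly expressed in endothelial cells, so their 8 markers were read beside it. They summed to between 161 and 296 CPM in Pkd1KO+ciliaKO females, 119 and 235 CPM in noncystic females and 99.0 and 205 CPM in Pkd1KO females. These ranges overlap, and 1 of the 8 markers was called, higher in Pkd1KO+ciliaKO than in Pkd1KO females. The part of endothelial cells in the *Id1* level was not tested. In males *Id1* passed in no genotype comparison (adjusted p of 0.390 or more in edgeR). It was at 8.16 to 14.6 CPM in noncystic males (mean 11.7 ± 2.31 SD, n = 8), 7.43 to 22.8 CPM in Pkd1KO males (14.6 ± 5.75, n = 7) and 5.02 to 20.3 CPM in Pkd1KO+ciliaKO males (11.9 ± 5.35, n = 9), so the groups overlapped.

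*Id2* and *Id3* were also lowest in Pkd1KO+ciliaKO among the females, without passing the test. *Id2* medians were 206, 182 and 159 CPM, and *Id3* medians 44.3, 44.97 and 36.1 CPM, in noncystic, Pkd1KO and Pkd1KO+ciliaKO females. Against Pkd1KO+ciliaKO females, Pkd1KO females differed by 0.28 (SE 0.120, adjusted p = 0.136 in edgeR) for *Id2* and 0.31 (SE 0.127, adjusted p = 0.127) for *Id3*. Pkd1KO+ciliaKO against noncystic females gave -0.39 (SE 0.152, adjusted p = 0.159) for *Id2* and -0.36 (SE 0.162, adjusted p = 0.214) for *Id3*. In males, group means of *Id2* were 156 to 173 CPM and those of *Id3* 29.1 to 35.8 CPM, and no genotype difference between males passed.

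*Tgfb2* and *Id1* also differed between the sexes. In noncystic mice 4 of the 10 genes were called between males and females, all lower in males, beside 27.5% of all genes tested and 12.2% lower in males. In Pkd1KO mice 3 were called (1 higher and 2 lower in males), beside 27.2% of all genes (14% higher and 13.2% lower), and in Pkd1KO+ciliaKO mice 1, beside 14.6%. The shares called in either direction were thus of the order of the background. In noncystic mice the share called lower in males, 4 of 10, was above the 12.2% of all genes, on a count of few genes.

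*Tgfb2* was lower in males of every genotype. All 8 noncystic males were below all 7 noncystic females, and all 9 Pkd1KO+ciliaKO males were below all 6 Pkd1KO+ciliaKO females, while 5 of the 7 Pkd1KO males were below all 8 Pkd1KO females. The log2 difference of males from females was -2.47 (SE 0.263, adjusted p = 2.88e-06) in noncystic, -1.16 (SE 0.218, adjusted p = 0.000876) in Pkd1KO and -2.47 (SE 0.340, adjusted p = 0.000266) in Pkd1KO+ciliaKO mice, all with edgeR, and it was called under every alternative setting run (6 in noncystic and Pkd1KO+ciliaKO, 5 in Pkd1KO mice). In noncystic mice 3 of the 10 genes had sexes without overlap, beside 5.93% of all genes, and in Pkd1KO+ciliaKO mice 1 had, beside 2.69%.

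The *Tgfb2* promoter is shown for that difference. The bases lie at chr1:186705990-186706139 of GRCm38.p6, on the minus strand, and end at the base before the start. In capitals, in this order, are a CCAAT box, an E-box (CACGTG) and a TATA box (TATAAA).
Tgfb2: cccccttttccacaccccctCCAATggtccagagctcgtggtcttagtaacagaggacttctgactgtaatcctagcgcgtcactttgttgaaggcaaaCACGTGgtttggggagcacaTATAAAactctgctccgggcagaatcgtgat
Counted back from the base before the start, these matches began at -130, -51 and -31. On either strand, CACGTG was in 7.15% and TATAAA in 13.6% of the 32851 windows.

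*Id1* was lower in males of 2 genotypes. In noncystic mice all 8 males were below all 7 females (log2 difference -1.49, SE 0.188, adjusted p = 1.58e-05 in edgeR). In Pkd1KO mice 6 of 7 males were below all females (-1.04, SE 0.224, adjusted p = 0.00260). In Pkd1KO+ciliaKO mice the difference was -0.29 (SE 0.286, adjusted p = 0.534), with 4 of 9 males below all females.

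*Tgfb3* was lower in noncystic males than in noncystic females (-0.83, SE 0.169, adjusted p = 0.00151 in edgeR), with 7 of 8 males below all females, and did not pass in Pkd1KO mice (-0.03, SE 0.251, adjusted p = 0.948). *Smad7* was lower in noncystic males by a small amount (-0.20, SE 0.0605, adjusted p = 0.0221), with all 8 males below all 7 females. That call was lost without the libraries whose *Kif3a* went against the label (-0.16, adjusted p = 0.0533). *Tgfbr2* was higher in Pkd1KO males than in Pkd1KO females (0.41, SE 0.129, adjusted p = 0.0255), with 2 of 7 males above all 8 females.

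**Figure D3:**
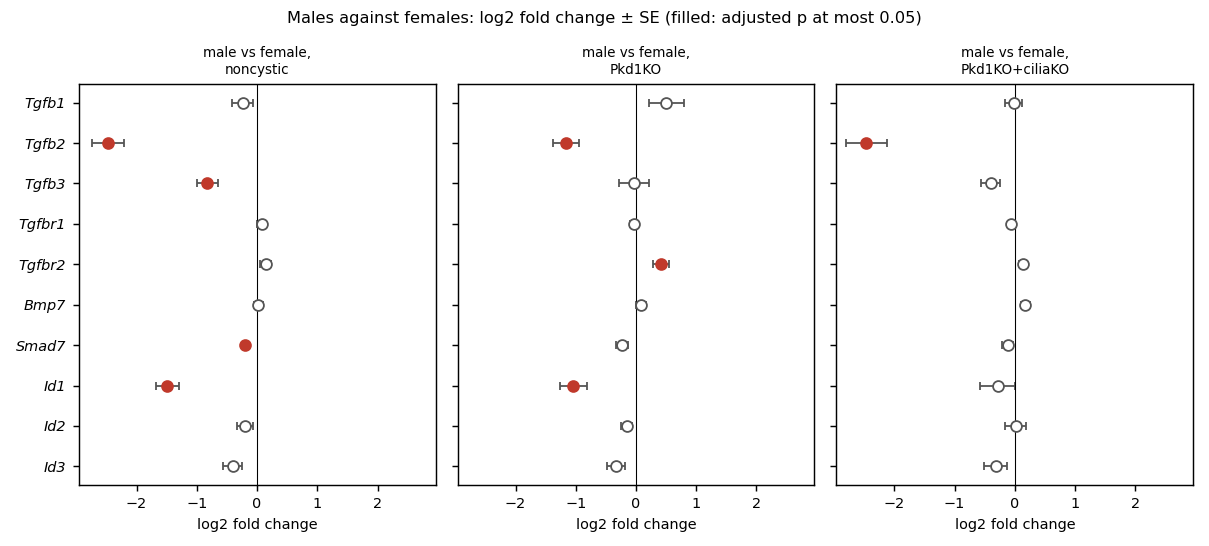
Log2 fold changes ± SE of males against females for the 10 genes within each genotype, with filled points for an adjusted p of at most 0.05 in edgeR. *Tgfb2* lies left of 0 and is filled in all 3 panels, and *Id1* moves from -1.49 in noncystic to -0.29 in Pkd1KO+ciliaKO mice.

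Whether a genotype effect itself differed between the sexes was tested as an interaction in a fit of all 45 mice. None of the 10 genes passed in edgeR, beside 0.0126% of all genes for Pkd1KO against noncystic, 0.221% for Pkd1KO against Pkd1KO+ciliaKO and 0.0316% for Pkd1KO+ciliaKO against noncystic mice. At an unadjusted p under 0.05 there were 4, 2 and 1 of the 10, beside 8.08%, 7.94% and 5.49% of all genes, and DESeq2 also called 0 in each. For *Tgfb2* the effect of Pkd1KO against noncystic was higher in males than in females by 1.32 (SE 0.411, adjusted p = 0.276), and that of Pkd1KO against Pkd1KO+ciliaKO by 1.30 (SE 0.411, adjusted p = 0.265). For *Id1* the effect of Pkd1KO+ciliaKO against noncystic was higher in males by 1.22 (SE 0.357, adjusted p = 0.369). The lower *Id1* in Pkd1KO+ciliaKO females is therefore not shown to be particular to females.

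The wider pathway was read from 9 lists with 103 genes besides the 10, of which 98 were tested in males and 97 in females. In Pkd1KO against noncystic males 4 were higher and 1 lower, and in females 3 were higher and 0 lower. In Pkd1KO against Pkd1KO+ciliaKO mice 1 was higher and 2 lower in males, and 2 were higher and 8 lower in females. In Pkd1KO+ciliaKO against noncystic mice 12 were higher and 0 lower in males, and 3 were higher and 0 lower in females. The shares called of the genes tested, in males and in females, were 5.10% and 3.09%, 3.06% and 10.3%, and 12.2% and 3.09%. Those of all genes were 6.30% and 3.34%, 3.77% and 11.7%, and 8.89% and 2.54%.

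Among other ligands *Bmp5*, a BMP related to Bmp7, was higher in Pkd1KO+ciliaKO mice than in either other genotype. It was low in all mice, at 0.198 to 1.00 CPM in noncystic, 0.249 to 0.483 CPM in Pkd1KO and 1.01 to 1.87 CPM in Pkd1KO+ciliaKO males. The lowest Pkd1KO+ciliaKO male was just above the highest noncystic male and well above every Pkd1KO male. Pkd1KO against Pkd1KO+ciliaKO gave -2.03 (SE 0.190, adjusted p = 6.67e-06 in edgeR) in males and -1.26 (SE 0.216, adjusted p = 0.00230) in females. Pkd1KO+ciliaKO against noncystic gave 1.5 (SE 0.268, adjusted p = 0.00185) in males and 1.17 (SE 0.278, adjusted p = 0.0411) in females, where leaving out any of 10 of the 13 mice (noncystic females 1, 2, 3, 4, 6 and 7 and Pkd1KO+ciliaKO females 2, 3, 4 and 5) lost the call, with an adjusted p of up to 0.114. *Gdf11* was lower in Pkd1KO than in Pkd1KO+ciliaKO females (-0.66, SE 0.144, adjusted p = 0.00880).

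Secreted antagonists and modulators were the list with the most calls. In Pkd1KO+ciliaKO against noncystic males 6 of 14 (42.9%) were higher and 0 lower, beside 8.89% of all genes called, with a median log2 fold change of 0.45, where that of all genes was 0.01. In the same comparison 4 of 7 proximal tubule markers were lower (median -0.49), 2 of 5 podocyte markers were higher (median 0.47), and the 7 immediate early genes had a median of 1.47 with 1 called. Their part in these differences was not tested. *Grem1*, *Nbl1* and *Sostdc1* bind BMPs and *Fst* binds activins. *Fst* was at 5.92 to 17.9 CPM in noncystic, 8.80 to 31.2 CPM in Pkd1KO and 13.4 to 34.6 CPM in Pkd1KO+ciliaKO males, with a log2 fold change of 1.22 (SE 0.215, adjusted p = 0.00166 in edgeR) in Pkd1KO+ciliaKO against noncystic. *Nbl1* changed by 0.76 (SE 0.132, adjusted p = 0.00150) and *Grem1* by 2.71 (SE 0.483, adjusted p = 0.00180). *Grem1* was scarce, at 0.00913 to 0.354 CPM in noncystic and 0.289 to 1.34 CPM in Pkd1KO+ciliaKO males, and its lowest value lay under the level that 3 counts stand for.

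*Sostdc1* was lower in Pkd1KO than in Pkd1KO+ciliaKO mice of both sexes (-0.59, SE 0.143, adjusted p = 0.0294 in males and -0.42, SE 0.109, adjusted p = 0.0207 in females). *Chrd*, which encodes chordin, went the other way in females (0.75, SE 0.192, adjusted p = 0.0197). Leaving out Pkd1KO+ciliaKO female 3 took both female values just past the threshold (adjusted p = 0.0508 and 0.0514), and the male *Sostdc1* call was lost without any of Pkd1KO males 1, 2, 5, 6 and 7 or Pkd1KO+ciliaKO male 1 (adjusted p up to 0.0610).

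*Twsg1*, which encodes a chordin-binding modulator of BMPs, was higher than in noncystic mice in all 4 comparisons with them. It was at 87.3 to 153 CPM in noncystic, 138 to 184 CPM in Pkd1KO and 136 to 202 CPM in Pkd1KO+ciliaKO males, and at 151 to 234, 208 to 262 and 206 to 288 CPM in the same groups of females. The log2 fold change in Pkd1KO was 0.42 (SE 0.103, adjusted p = 0.0225 in edgeR) in males and 0.38 (SE 0.0828, adjusted p = 0.0155) in females, and in Pkd1KO+ciliaKO 0.49 (SE 0.1002, adjusted p = 0.00478) and 0.40 (SE 0.0995, adjusted p = 0.0477). The first of these 4 calls was lost with limma on log2(TPM + 1) and log2(TPM + 0.1) (adjusted p up to 0.109). The last was lost with all annotated genes and with 10 of 13 mice left out in turn (all but noncystic female 5 and Pkd1KO+ciliaKO females 5 and 6), the adjusted p then being up to 0.114.

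Of the signalling Smads, *Smad2* was higher in Pkd1KO than in noncystic mice of both sexes (0.21, SE 0.0506, adjusted p = 0.0194 in males and 0.20, SE 0.0445, adjusted p = 0.0171 in females, edgeR) and *Smad4* in females (0.21, SE 0.0458, adjusted p = 0.0156). The *Smad2* calls were kept with each mouse left out and were lost with limma on TPM, and the *Smad4* call was lost with 3 genotypes in one fit. Of 14 other receptors 3 (21.4%) were called in Pkd1KO against Pkd1KO+ciliaKO females, all lower, beside 11.7% of all genes. *Acvr1b*, an activin type I receptor, was among them (-0.35, SE 0.0673, adjusted p = 0.00447 in edgeR). It was also lower in Pkd1KO than in noncystic males (-0.26, SE 0.0717, adjusted p = 0.0406). That male call was lost with 11 of 15 mice left out in turn, every one but noncystic males 1 and 5 and Pkd1KO males 2 and 3 (adjusted p up to 0.0925). It was also lost with all annotated genes, with limma on TPM and without the males that lay low on the first principal component. None of the 10 intracellular inhibitors or the 3 E proteins was called in any of the 6 comparisons in edgeR. Over the 6 comparisons 8 of 60 tests of the inhibitors and 3 of 18 of the E proteins had an unadjusted p under 0.05 (13.3% and 16.7%), beside 21.9% of the tests of all genes.

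Of 14 listed TGF-beta targets 2 (14.3%) were higher in Pkd1KO than in noncystic males, where 6.30% of all genes were called. In that comparison 2 of 6 tubule injury and 2 of 8 macrophage markers were also called higher. The part of those markers' cells was not tested. *Cdkn1a*, a cell cycle inhibitor that many other signals also induce, was at 10.2 to 31.9 CPM in noncystic and 25.2 to 79.8 CPM in Pkd1KO males (1.29, SE 0.288, adjusted p = 0.0127 in edgeR). This call was lost with limma on log2(TPM + 1) (adjusted p = 0.0531). *Cdkn1a* was also higher in Pkd1KO+ciliaKO than in noncystic males (1.05, SE 0.195, adjusted p = 0.00237 in edgeR). *Timp1*, a protease inhibitor, was at 0.0842 to 0.384 CPM in noncystic males and reached 4.61 CPM in Pkd1KO male 4. Its log2 fold change of 2.5 (SE 0.634, adjusted p = 0.0259) was 1.39 (adjusted p = 0.0691) without that mouse, and the call was also lost without noncystic male 2, 6 or 7, with limma voom and with limma on TPM. Of 6 BMP targets besides *Id1* to *Id3*, *Id4* was higher in Pkd1KO than in Pkd1KO+ciliaKO females (0.52, SE 0.136, adjusted p = 0.0220), the direction of *Id1*, at 39.3 to 75.1 against 35.2 to 48.3 CPM. That call was lost without Pkd1KO+ciliaKO female 3 or 4 (adjusted p up to 0.0540). It was also lost with limma on log2(TPM + 1) and log2(TPM + 0.1) (adjusted p up to 0.0809). *Runx2* was higher in Pkd1KO than in Pkd1KO+ciliaKO males (0.84, SE 0.222, adjusted p = 0.0429), and was kept with only 2 of 16 mice left out in turn, Pkd1KO male 5 and Pkd1KO+ciliaKO male 9. It was also lost with 3 genotypes in one fit, with limma voom or TPM and without the males that lay low on the first principal component.

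Between the sexes 29 of the 97 pathway genes tested were called in noncystic mice (29.9%), 22 in Pkd1KO (22.7%) and 20 in Pkd1KO+ciliaKO mice (20.6%), beside 27.5%, 27.2% and 14.6% of all genes. Of the 97, 25.8%, 17.5% and 18.6% were called lower in males, beside 12.2%, 13.2% and 6.32% of all genes. In the list of the 7 other Smads 6, 3 and 4 were called, beside the same shares of all genes called.

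**Figure D4:**
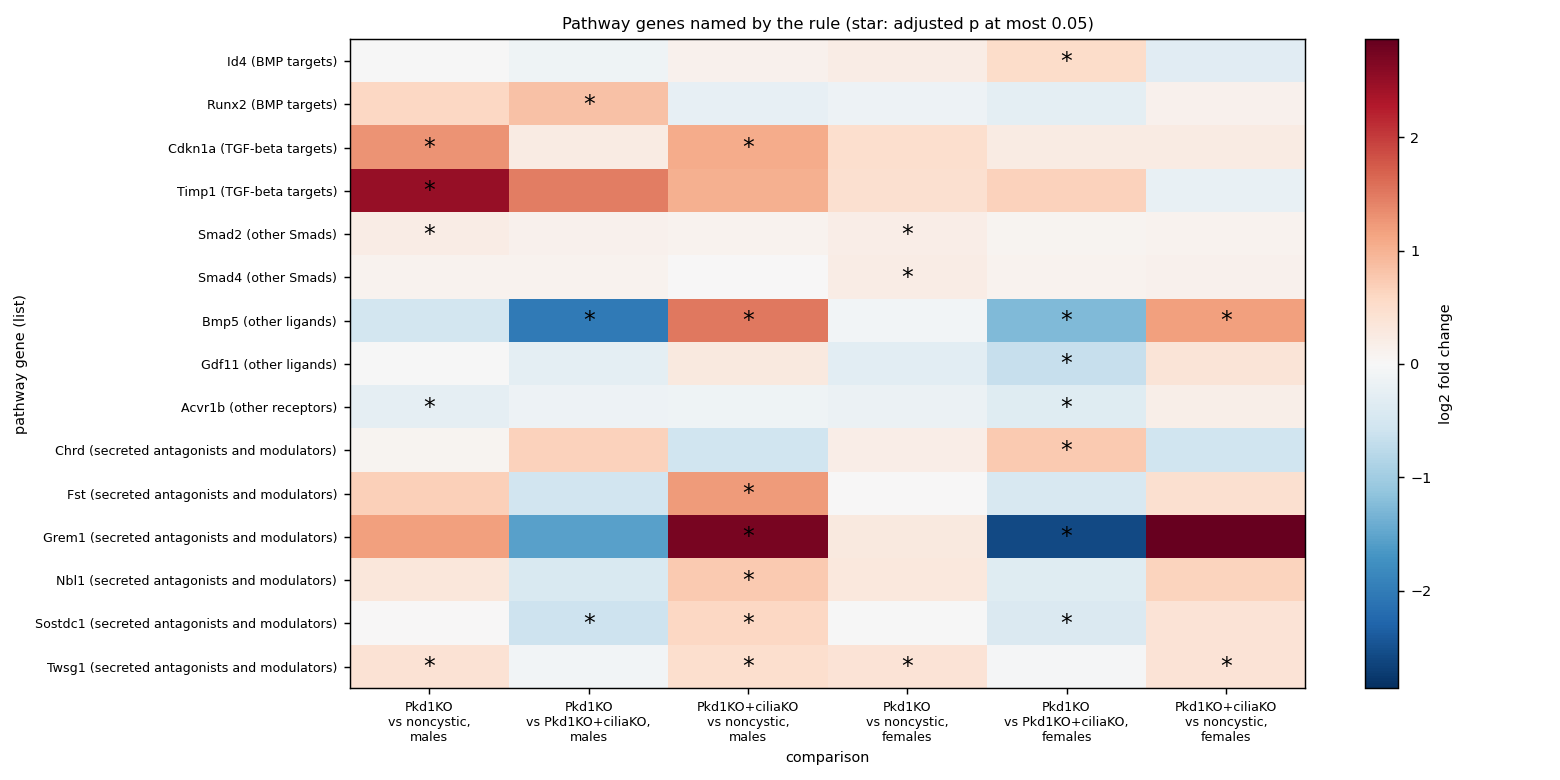
Log2 fold changes of 15 pathway genes named by rule, in rows with their list in brackets, over the 6 genotype comparisons in columns. Red is higher in the first group, blue is lower, and a star marks an adjusted p of at most 0.05 in edgeR. *Twsg1* is starred in all 4 comparisons with noncystic mice and *Bmp5* in all 4 that include Pkd1KO+ciliaKO mice.

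How the 10 genes moved together from mouse to mouse was described with Pearson's r over the 45 mice, on log2(CPM + 0.5) less the mean of the sex. These mice share a depth scale and a cell mixture, and the values are descriptions. *Id1* and *Id3* were the closest pair of the 10 (r = 0.75), and each was the other's most similar gene among all coding genes kept. *Id1* and *Id2* had r = 0.66. Less the mean of each of the 6 groups these were 0.75 and 0.60. *Tgfb3* and *Tgfbr2* had r = 0.74, or 0.61 less the group means.

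The genes most like each of the others were named by the same measure. For *Tgfb1* they were *Tnfsf13b*, *Axl* and *Plpp1* (r = 0.91, 0.90 and 0.90), and for *Tgfb3* *Cnn2*, *Lgi2* and *Cd276* (0.87, 0.86 and 0.85). For *Tgfbr2* they were *Cd276*, *Iqgap3* and *Nrm* (0.82, 0.82 and 0.81), and for *Bmp7* *Gnptab*, *Mapk4* and *Dnajc10* (0.81, 0.78 and 0.75). *Id2* was followed most closely by *Ccdc58*, *Akr1c21* and *Commd3* (0.77, 0.76 and 0.76), and *Tgfbr1* by the BMP type II receptor *Bmpr2*, *Esyt2* and *Cd47* (0.71, 0.67 and 0.67). The remaining values were lower, with *Trim5*, *Cfap45* and *Aplnr* for *Tgfb2* (0.68, 0.67 and 0.67) and *Lrp12*, *Pip4k2c* and *Cxxc5* for *Smad7* (0.61, 0.59 and 0.58). After *Id3*, *Id1* was most like *Map3k7cl* (0.67) and *Id2*. After *Id1*, *Id3* was most like *Selenoh* and *Atoh8* (0.63 each), and *Atoh8* is on the list of BMP targets.

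**Figure D5:**
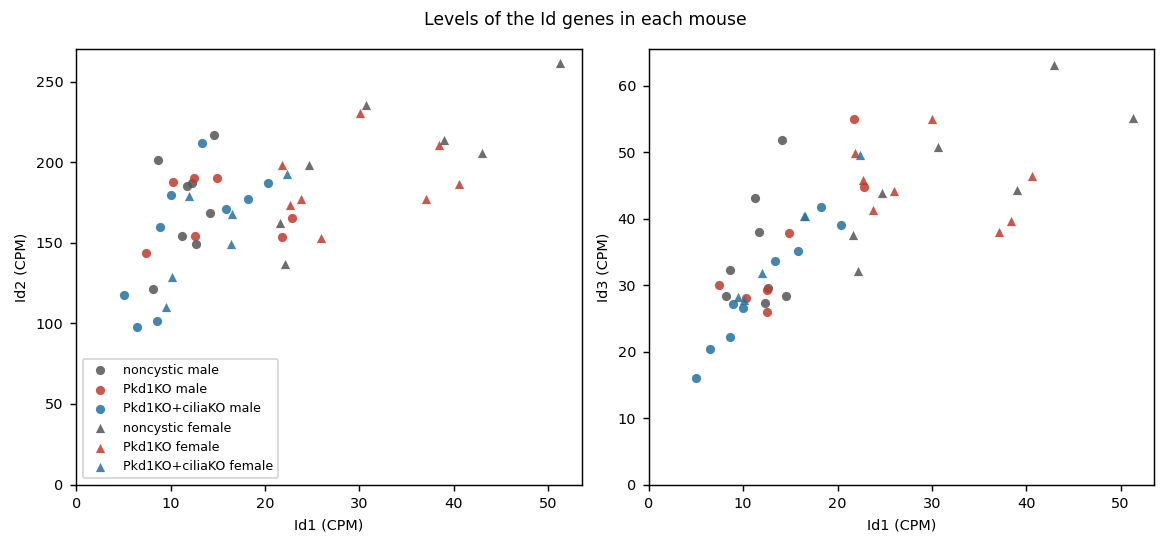
*Id2* (left) and *Id3* (right) against *Id1* in CPM in each of the 45 mice, with circles for males, triangles for females and colours for genotypes, on linear axes from 0. Mice high in *Id1* tend to be high in *Id3*, and 5 of the 6 Pkd1KO+ciliaKO females lie left of all other females, the remaining one being at 22.3 CPM of *Id1*.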

How the data were processed

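Libraries were depleted of ribosomal RNA. The authors used fastp 0.20.0 for trimming, STAR 2.7.9 for alignment (mouse build GRCm38.p6) and featureCounts 2.0.0 for the assignment of fragments to GENCODE vM25 genes. The strand option of the counting is not given in the sources used here. They deposited raw counts per gene, which were the input of every main test, and TPM tables made by the authors for each sex, used to compare genes and in 2 alternatives on a log2 scale. Here, coding genes that reached 6 counts in 20% of the mice of a sex were tested with edgeR 4.0.16 (TMM, quasi-likelihood F test, Benjamini-Hochberg over all genes tested, adjusted p of at most 0.05), each pair of groups alone, in R 4.3.3. Sex comparisons and interactions used the 15828 genes kept in both sexes. Alternatives used DESeq2 1.42.0, limma 3.58.1, other scalings and filters, and fits without single mice or doubtful libraries. Groups and replicates are separate mice as labelled, from a single sequencing batch, and no pair within a group agreed within sampling noise. The 10 genes, the lists and the doubted libraries were chosen with earlier results of these data known. Pathway genes named are the called ones, up to 6 per genotype comparison by p-value, and 1 of them is not reported here. Symbols and locations came from GENCODE vM21, and promoter sequences from RefSeq. The pipeline was tested on simulated data.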

Additional observations from a re-analysis of the deposited data

Results flagged for a closer look

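Of 60 gene and group pairs, 6 held a mouse whose gap to its nearest neighbour was large for the range of its group by Dixon's criterion, where chance alone marks about 1 in 20. *Tgfb1* was at 37.2 CPM in Pkd1KO male 4, against 9.81 to 15.5 CPM in the other Pkd1KO males. *Tgfb2* accounted for 3 of the 6, all in females. It was at 15.4 CPM in the library labelled noncystic female 5 (others 4.21 to 7.86 CPM), at 2.34 CPM in Pkd1KO female 8 (others 4.56 to 5.83 CPM) and at 23.6 CPM in Pkd1KO+ciliaKO female 2 (others 2.07 to 7.90 CPM). *Tgfb3* was at 3.13 CPM in Pkd1KO+ciliaKO male 2, where the other 8 males of that group lay at 1.46 to 2.27 CPM. That mouse also had the highest sum of immediate early genes of its group, at 1711 CPM against 89.0 to 288 CPM, and their part in the *Tgfb3* level was not tested. *Tgfbr2* was at 107.9 CPM in Pkd1KO+ciliaKO male 9, against 84.2 to 95.7 CPM in the others.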

How the results depend on the processing

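No called difference changed sign under any alternative, and of 120 pairs of gene and comparison 25 were called by the main test or by some alternative. The number of the 10 genes called in Pkd1KO against noncystic males was 1 in place of 3 with the replicate number as a block and with limma on log2(TPM + 1) and log2(TPM + 0.1), and 1 to 3 with single mice left out. In Pkd1KO against Pkd1KO+ciliaKO males it was 1 in place of 0 with limma voom, and 0 without any single mouse. In Pkd1KO+ciliaKO against noncystic males it was 1 in place of 2 with the replicate block, 0 with 3 genotypes in one fit, 4 with limma voom and both TPM settings, and 0 to 3 with single mice left out. In Pkd1KO against noncystic females it was 1 in place of 0 with DESeq2, 3 genotypes in one fit, limma voom, both TPM settings and without the libraries whose *Kif3a* went against the label, and 0 to 1 with single mice left out. In Pkd1KO against Pkd1KO+ciliaKO females it was 2 in place of 1 with 3 genotypes in one fit, and 1 to 2 with single mice left out. In Pkd1KO+ciliaKO against noncystic females it was 1 in place of 2 with the replicate block, 3 genotypes in one fit and all annotated genes, and 0 to 2 with single mice left out. Between the sexes in Pkd1KO+ciliaKO mice it was 2 in place of 1 without the males that lay low on the first principal component. These counts leave out some shifts of single genes. In Pkd1KO against noncystic males *Tgfb2* was also gained with DESeq2 and with 3 genotypes in one fit. *Tgfbr2* was lost there with limma voom and without the males that lay low on the first principal component. Without those males *Tgfb1* was gained in Pkd1KO+ciliaKO against noncystic males. *Smad7* was lost between noncystic sexes without the libraries whose *Kif3a* went against the label. The cause of these shifts was not tested. Same-numbered mice correlated at -0.427 to 0.473, and in no comparison did all pairs exceed 0.1, so the numbers were not taken to pair the mice. Differently numbered mice were not set beside them, so this cannot decide whether the numbers pair the mice. The fit with the block did not call *Tgfb3* and *Tgfbr2* in either male comparison with noncystic mice, *Tgfbr2* in Pkd1KO+ciliaKO against noncystic females or *Smad7* between noncystic sexes, and it called *Tgfb1* in Pkd1KO+ciliaKO against noncystic males and *Id3* between noncystic sexes. Among the pathway genes named, it did not call *Smad2*, *Timp1* and *Acvr1b* in Pkd1KO against noncystic males, *Smad2*, *Smad4* and *Twsg1* in females, *Bmp5* and *Twsg1* in Pkd1KO+ciliaKO against noncystic females, *Sostdc1* and *Runx2* in Pkd1KO against Pkd1KO+ciliaKO males, or *Bmp5*, *Gdf11*, *Acvr1b* and *Sostdc1* in females. Leaving out the *Kif3a* libraries removes none from the sex comparison of Pkd1KO mice and was not run there. *Tgfb2* and *Tgfb3* had the lowest counts of the 10 genes, at no less than 80 and 72 counts per mouse.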
